A study of Mus musculus with 4 samples.

Results

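Potassium channel genes were taken as every gene whose symbol starts with Kcn and to which the platform annotation assigns at least 1 probe set with no other gene. There were 62 such genes among the 12393 genes measured, covered by 90 of the probe sets, and the probe set with the highest mean stood for each gene. Of the 62 genes, 20 encode voltage-gated pore subunits, 15 accessory subunits, 13 inward rectifiers, 8 subunits of the 2-pore channels and 6 pore subunits of the Slo and small- or intermediate-conductance families, which calcium activates except for Kcnu1. Levels were read in 4 Affymetrix arrays of whole normal skeletal muscle, 1 per sample, from wild type mice of mixed 129S4/SvJae and C57BL/6 strain. The labels give no treatment, no age and no statement on whether each sample is a different animal. The samples form 1 group, and their titles are skm4, skm5, nm7 and nm8. What the prefixes skm and nm stand for is not given, so the skm minus nm difference was read as a possible batch and not as an effect of a condition. The series also covers sarcomas, which were not analysed here.

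Potassium channels let potassium ions leave the cell and so pull the membrane back toward rest. In skeletal muscle, voltage-gated channels repolarise the fibre after each action potential, inward rectifiers and 2-pore channels help to hold the resting potential, and channels closed by ATP or opened by calcium tie excitability to metabolism and to the calcium signal. Accessory subunits change how a pore opens, closes or inactivates. Whole muscle also holds nerve, vessel and immune cells that carry potassium channels of their own.

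All levels are on the log2 scale of RMA, the authors' summary over the probes of a set, so a difference of 1 is a 2-fold change. RMA understates differences among very dim and among very bright genes. Probe sets differ in how strongly they bind, so the level of 1 gene is not ranked here against that of another. Array medians were 7.26 to 7.30 and no pair of arrays shared more than 0.0485% of its values. The tissue label was checked with 5 measured markers of skeletal muscle, such as Acta1 and Ckm, whose means of 13.65 to 14.64 lay near the top of the scale (highest value on any array 14.76). With only 4 arrays, precision is limited. In the main limma fit, each p-value and standard error starts from the spread within the skm pair and within the nm pair. That leaves 2 residual degrees of freedom per gene. The fit then moves this spread toward a value estimated from all genes, which has 3.51 degrees of freedom and so the larger weight. The spread within a pair may be technical.

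Of the 62 genes, 10 (16.1%) had a mean at or above the median of all gene means, 7.86. As a guide to the dim end, 11 measured genes of other organs, such as Ins2, had means of 3.81 to 7.72. Of the 62 genes, 12 had a mean above every one of these. The other 50 lay at or under the highest, so their level alone does not set them apart from genes of other organs. A low reading does not show that a transcript was missing, since it may reflect a weak probe set.

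**Figure D1:**
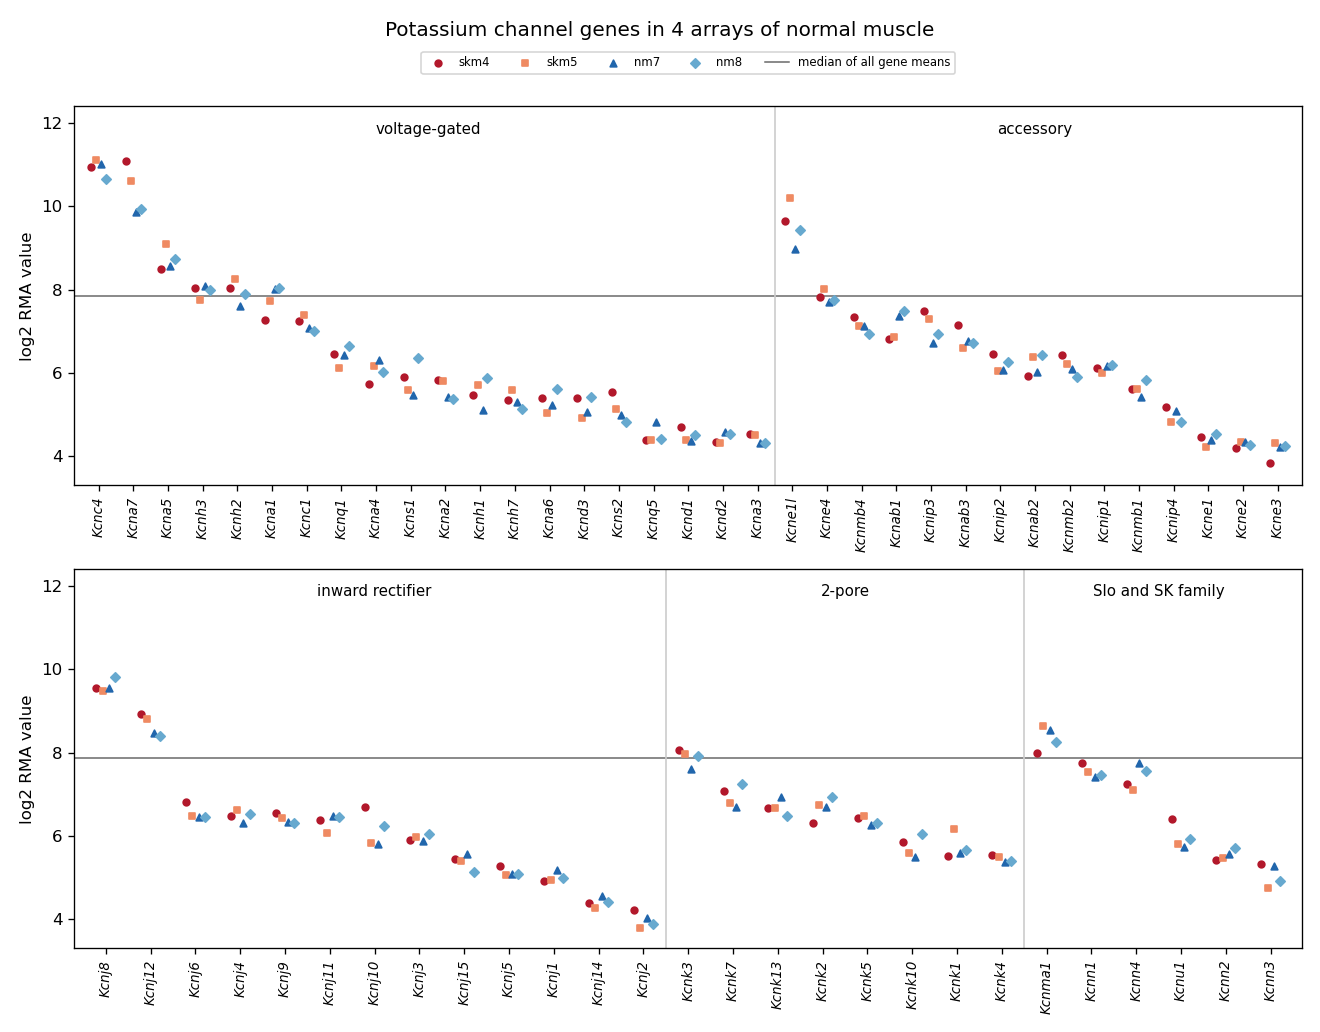
Log2 RMA value (vertical axis) of each potassium channel gene (horizontal axis, grouped by role and ordered by mean) in the 4 arrays, 1 point per array. The solid line is the median of all gene means, 7.86. The 4 points of most genes lie close together, and those of Kcna7 and Kcne1l span more than 1 unit.

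The 4 samples read most of these genes alike. The median SD over the 62 genes was 0.20, against 0.19 over all genes, and SDs ran from 0.07 for Kcne2 to 0.59 for Kcna7. Only Kcna7 and Kcne1l had a range over 1 between the highest and the lowest array, which is 2 of 62 genes (3.23%) where 5.98% of all genes had one. That number was 1 without skm4, skm5 or nm7. The next widest range was 0.90, in Kcnj10. A single array stood apart from the other 3 by Dixon's ratio in 3 of the 62 genes, where 4.21% of all genes had such an array. Among the 10 genes at or above the median level the median SD was 0.26, against 0.17 over all genes at such levels. Among the 52 below it the median SD was 0.19, against 0.21.

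**Figure D2:**
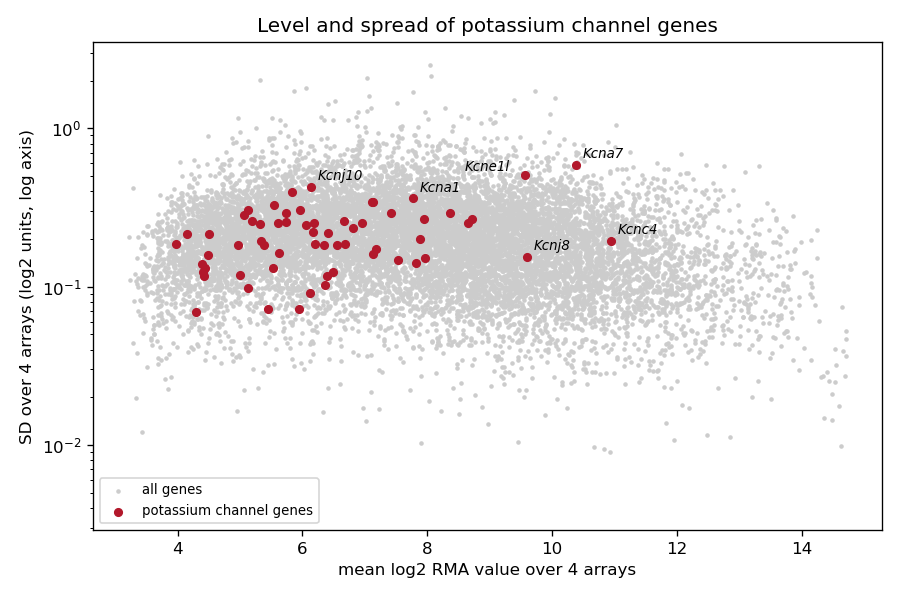
SD over the 4 arrays (vertical log axis, log2 units) against the mean log2 RMA value (horizontal axis), with all genes in grey and the 62 potassium channel genes in red. Kcna7, at a mean of 10.38 and an SD of 0.59, and Kcne1l, at 9.56 and 0.51, lie in the upper part of the cloud at their level, while Kcnc4 and Kcnj8 lie in its middle.

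Between the title prefixes, 0 of the 62 genes passed limma's test over all genes, where 4 of 12393 genes (0.0323%) did. Over all genes the count was 0 without skm4, nm7 or nm8 and 15 without skm5, and over the 62 it was 0 in each case. At an unadjusted p under 0.05 there were 8 potassium channel genes (12.9%), 5 higher and 3 lower in skm, against 23.5% of all genes (10.6% higher and 13.0% lower). Without skm5 there were 13 (21.0%) against 22.2% of all genes, and without nm7 5 (8.06%) against 15.2%. The skm and nm arrays did not overlap for 29 of the 62 (46.8%), 19 higher and 10 lower, against 54.4% of all genes. The median skm minus nm difference was 0.06, against -0.00340 over all genes, and 5 genes (8.06%) differed by more than 0.5 in either direction, against 13.6% of all genes. The median was -0.00563 without skm4, so its sign rested on that sample. In whole tissue, fewer cells of a type and less RNA per cell cannot be told apart.

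**Figure D3:**
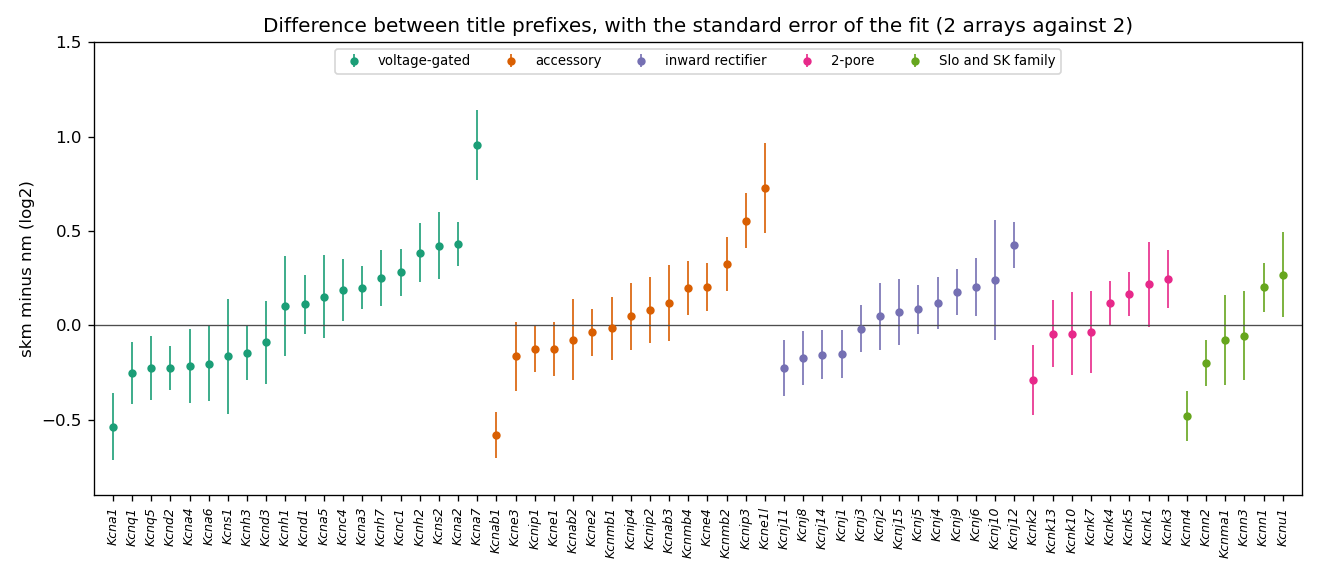
Difference skm minus nm on the log2 scale (vertical axis) for each potassium channel gene (horizontal axis), grouped by role and ordered by size, with the standard error of the limma fit as bars (2 arrays against 2). Kcna7 stands highest at 0.96 and Kcnab1 lowest at -0.58, and no gene passed the test over all genes.

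Kcna7, which encodes a shaker-type voltage-gated pore subunit found in skeletal muscle and heart, had the largest difference of the family. It read 11.09 in skm4 and 10.62 in skm5, against 9.85 in nm7 and 9.94 in nm8. Both skm arrays lay above both nm arrays by at least the gap between 10.62 and 9.94, and the nm pair lay closer together than the skm pair. The difference was 0.96 ± 0.19 (SE, n = 2 each; 1.94-fold higher in skm), with a limma adjusted p = 0.0706. It lay between 0.72 and 1.20 when each array was left out in turn. The gene passed at a limma adjusted p = 0.0234 when only genes at or above the median level were tested, where 16.6% of those 6197 genes passed. With an intensity trend in the variance model it passed at a limma adjusted p = 0.0151, where 8.96% of all 12393 genes passed. Of the 5 measured skeletal muscle fibre markers, 0 passed and 0 had an unadjusted p under 0.05, with differences of -0.24 to 0.05. Des and Ttn were lower in both skm arrays than in both nm arrays, by -0.24 each. The log2 of the summed level of the 5 was 16.64 and 16.55 in skm4 and skm5, against 16.72 and 16.59 in nm7 and nm8. These markers read near the top of the scale, where differences are understated, and their part in the Kcna7 difference was not tested.

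Kcnc4, a pore subunit of the fast-inactivating Shaw type known from skeletal muscle, differed between the prefixes by little more than its standard error. It read 10.95 in skm4 and 11.11 in skm5, against 11.03 in nm7 and 10.67 in nm8, so the prefixes overlapped and nm8 was the lowest. Its difference was 0.19 ± 0.17 (adjusted p = 0.554). A second probe set of the gene, at a mean of 9.01, differed by 0.35. Kcnc1, the related subunit of fast-spiking neurons, read 7.25 and 7.38 in skm4 and skm5, against 7.08 and 6.996 in nm7 and nm8, a difference of 0.28 ± 0.12 (adjusted p = 0.245) without overlap.

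Kcna1 and Kcna2 encode pore subunits that join in one channel beside the nodes of myelinated axons, and their readings went opposite ways. Kcna1 read 7.28 in skm4 and 7.72 in skm5, against 8.03 in nm7 and 8.05 in nm8, a difference of -0.54 ± 0.18 (adjusted p = 0.156). Kcna2 read 5.84 and 5.81 in skm4 and skm5, against 5.42 and 5.36 in nm7 and nm8, a difference of 0.43 ± 0.12 (adjusted p = 0.113). Neither gene overlapped between the prefixes and neither passed the test. Kcna2 was dim, at a mean of 5.61, within the range of the genes of other organs (3.81 to 7.72). Leaving out 1 array took the difference of Kcna1 to between -0.76 and -0.31, the second without skm4. The 3 measured markers of Schwann cells and myelin did not follow the prefixes: the log2 of their summed level was 12.18 in skm4 and 13.17 in skm5, against 12.76 in nm7 and 12.66 in nm8. In that list 0 of 3 passed limma's test, 0 had an unadjusted p under 0.05 and 0 were without overlap.

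Kcna5, a subunit of atrial and vascular smooth muscle channels, was highest in 1 skm sample. It read 8.50 in skm4 and 9.10 in skm5, against 8.56 in nm7 and 8.73 in nm8, so the prefixes overlapped (difference 0.15 ± 0.22, adjusted p = 0.727). The 7 keratinocyte and the 3 Schwann cell markers had their highest summed level in skm5 too. The log2 sum of the keratinocyte markers was 9.56 in skm4 and 11.19 in skm5, against 9.41 in nm7 and 9.74 in nm8. That of the 6 smooth muscle markers was lowest in skm5, at 14.155, against 14.34 in skm4, 14.34 in nm7 and 14.35 in nm8. This sum rests mostly on Des, which is also in the skeletal muscle list. Its members split: Acta2 and Smtn were highest in skm5, and Des, Tagln and Cnn1 lowest. The part of any of these cells in the Kcna5 reading was not tested.

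Kcna1, Kcna5 and Kcna6 lie next to one another on chromosome 6 in the RefSeq gene table, with 0 protein-coding genes between them. Their differences were -0.54, 0.15 and -0.20, so Kcna1 and Kcna6 shared a direction and Kcna5 did not. Of the other adjacent members, Kcnj9 and Kcnj10 (0.18 and 0.24) shared a sign. So did Kcnip1 and Kcnmb1 (-0.12 and -0.02) and Kcnj6 and Kcnj15 (0.20 and 0.07). Kcnj5 and Kcnj1 (0.09 and -0.15) did not. These signs hold for the chosen probe sets only. The other probe set of Kcnj1 differed by 0.56, those of Kcnip1 by 0.26, -0.12 and 0.14, and those of Kcnj6 by between -0.53 and 0.38. Kcna3, the main voltage-gated channel of T cells, lies next to Kcna2 on chromosome 3, and both read higher in skm. Kcna3 read 4.53 and 4.51 in skm4 and skm5, against 4.33 and 4.31 in nm7 and nm8. Its difference was 0.20 ± 0.11 (adjusted p = 0.350), where the lymphocyte markers differed by -2.49 to -0.38. The Kcna3 values lie not far above the array's bacterial TrpnX controls, which read 3.40 to 4.05. The part of lymphocytes in the Kcna3 reading was not tested.

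Among the channels related to ether-a-go-go, Kcnh2 encodes the pore of the rapid delayed rectifier of the heart. It read 8.03 in skm4 and 8.25 in skm5, against 7.61 in nm7 and 7.89 in nm8, a difference of 0.39 ± 0.16 (adjusted p = 0.218), with no overlap, and it was 0.25 without nm7. Kcnh1 had 1 of the 10 largest SDs, 0.33, at 5.47 and 5.72 in skm4 and skm5, against 5.11 and 5.86 in nm7 and nm8, so the nm pair held both its lowest and its highest value (SD 0.20 without nm7). Kcnh3, an isoform known from brain, read between 7.75 and 8.09 in the 4 arrays.

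The silent subunits Kcns1 and Kcns2, which form no channel alone and modify others, were dim and among the genes with the largest SDs. Kcns1 had an SD of 0.39, and its value of 6.35 in nm8 stood above 5.47 in nm7 and above 5.90 and 5.59 in skm4 and skm5. Kcns2 read 5.54 in skm4 and 5.13 in skm5, against 4.998 in nm7 and 4.83 in nm8, a difference of 0.42 ± 0.18 (adjusted p = 0.227). Without nm8 the SD of Kcns1 was 0.22, and without skm4 that of Kcns2 was 0.15 and its difference 0.22. Of the other voltage-gated genes, Kcnd1 and Kcnq5 had means of 4.49 and 4.51, where a difference would be compressed. Kcnq5, a subunit of muscarine-sensitive channels, read 4.39 in skm4 and 4.39 in skm5, against 4.83 in nm7 and 4.41 in nm8, with nm7 apart from the rest.

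Among the accessory subunits, Kcnab1, the beta subunit that gives shaker-type channels fast inactivation, had the largest negative difference of the family. It read 6.82 in skm4 and 6.86 in skm5, against 7.36 in nm7 and 7.48 in nm8. The pairs were tight and did not overlap. The difference was -0.58 ± 0.12 (0.668-fold in skm), with a limma adjusted p = 0.0771, and it lay between -0.65 and -0.52 when single arrays were left out. A second probe set of Kcnab1, at a mean of 4.36, differed by -0.01. The related Kcnab2 and Kcnab3 overlapped between the prefixes, at differences of -0.08 ± 0.22 and 0.12 ± 0.20.

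Kcne1l, also called Kcne5, encodes a single-pass membrane subunit that, in humans, inhibits the channel formed by KCNQ1. It read 9.65 in skm4 and 10.19 in skm5, against 8.97 in nm7 and 9.42 in nm8. The skm arrays lay above the nm arrays, but the 2 arrays of each prefix differed by more than skm4 and nm8, the nearest pair across the prefixes. The difference was 0.73 ± 0.24 (1.66-fold higher in skm; adjusted p = 0.157), and it ran from 0.46 without skm5 to 0.998 when single arrays were left out. Kcnq1 itself read 6.45 and 6.12 in skm4 and skm5, against 6.43 and 6.64 in nm7 and nm8. Of the other members of this small family, Kcne4 read between 7.71 and 8.02. Kcne3, a partner of the Kcnc4 channel in muscle, read 3.83 in skm4, 4.30 in skm5, 4.22 in nm7 and 4.25 in nm8. Those values lie near the array's bacterial TrpnX controls, which read 3.40 to 4.05.

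Kcnip3, a calcium-binding partner of Kv4 channels that also acts as a transcriptional repressor, read 7.49 in skm4 and 7.28 in skm5, against 6.73 in nm7 and 6.94 in nm8. The difference was 0.55 ± 0.15 (1.47-fold higher in skm; adjusted p = 0.108), with no overlap. Its second probe set, at a mean of 4.77, differed by 0.37. Kcnip1, Kcnip2 and Kcnip4 differed by -0.12, 0.08 and 0.05. The pore genes Kcnd1, Kcnd2 and Kcnd3, with which these proteins join, had means of 4.49, 4.44 and 5.20.

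The inward rectifiers had a median SD of 0.15, and 1 of 13, Kcnj12, had an unadjusted p under 0.05, where 23.5% of all genes had one. Kcnj12, which helps to set the resting potential, read 8.92 in skm4 and 8.80 in skm5, against 8.47 in nm7 and 8.40 in nm8. Both pairs were tight and did not overlap. The difference was 0.43 ± 0.12 (1.34-fold higher in skm, limma adjusted p = 0.122). It passed at a limma adjusted p = 0.0404 when only genes at or above the median level were tested, where 16.6% of those 6197 genes passed. Kcnj2, the related channel whose human gene is mutated in a periodic paralysis with heart arrhythmia, read 4.22 in skm4 and 3.78 in skm5, against 4.01 in nm7 and 3.89 in nm8. The highest TrpnX control was 3.93 in skm4, 3.79 in skm5, 3.91 in nm7 and 4.05 in nm8. Kcnj2 thus lay above the controls of the same array in skm4 and nm7 and not in skm5 and nm8, and the prefixes overlapped.

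Kcnj8 and Kcnj11 encode the pores of the channels that ATP closes, the first in vessels and the second in muscle fibres and pancreatic beta cells. Kcnj8 read 9.55 in skm4 and 9.47 in skm5, against 9.55 in nm7 and 9.82 in nm8, with an overlap (difference -0.17 ± 0.14, adjusted p = 0.523). Kcnj11 read 6.39 and 6.07 in skm4 and skm5, against 6.46 and 6.44 in nm7 and nm8, a difference of -0.22 ± 0.15 (adjusted p = 0.423). Their partners are the sulfonylurea receptors Abcc8 and Abcc9. Abcc8 read 5.41 and 5.42 in skm4 and skm5, against 6.27 and 6.23 in nm7 and nm8, a difference of -0.84 ± 0.12 that did not pass (limma adjusted p = 0.0506). Abcc9, the partner in vessels and muscle, read between 10.19 and 10.35 in the 4 arrays. The 3 pericyte markers, among them Rgs5, differed by -0.37 to -0.01, and 0 of 3 passed or had an unadjusted p under 0.05. Of the 3, 2 (Cspg4 and Pdgfrb) were lower in skm without overlap, where 28.6% of all genes were. The log2 of their summed level was 12.94 and 12.92 in skm4 and skm5, against 13.08 and 12.94 in nm7 and nm8. That sum rests mostly on Rgs5, which differed by -0.01 at a mean of 12.61.

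Kcnj10, the inward rectifier of glia, had the third largest SD of the family, 0.43. It read 6.70 in skm4 and 5.82 in skm5, against 5.79 in nm7 and 6.24 in nm8, so each prefix held a high and a low array. Its mean of 6.14 lay within the range of the genes of other organs, 3.81 to 7.72. The markers of Schwann cells, the glia of the nerve, had their lowest summed level in skm4 and their highest in skm5. The part of these cells in the Kcnj10 reading was not tested. Without skm4 the SD of Kcnj10 was 0.25.

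The 2-pore channels, which pass a background current at rest, had differences of -0.29 to 0.25, and 0 of 8 had an unadjusted p under 0.05, where 23.5% of all genes had one. Kcnk3, an acid-sensitive channel, read 8.07 in skm4 and 7.95 in skm5, against 7.60 in nm7 and 7.92 in nm8, so the pairs were separated by only a small gap (0.25 ± 0.15, adjusted p = 0.387). Its other 2 probe sets differed by 0.15 and -0.34. Kcnk2, a channel opened by stretch, read 6.31 in skm4 and 6.74 in skm5, against 6.70 in nm7 and 6.92 in nm8 (-0.29 ± 0.19, adjusted p = 0.410). Kcnk1 was highest in skm5, at 6.16, against 5.51 in skm4, 5.60 in nm7 and 5.65 in nm8.

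Among the pore subunits that calcium activates, Kcnn4, the intermediate-conductance channel of T cells and red cells, read lower in both skm arrays than in both nm arrays. It read 7.24 in skm4 and 7.10 in skm5, against 7.74 in nm7 and 7.57 in nm8. The difference was -0.48 ± 0.13 (0.716-fold in skm, limma adjusted p = 0.116), with no overlap. Its second probe set differed by -0.32, but there the prefixes overlapped. That set read 6.08 in skm4 and 5.14 in skm5, against 5.999 in nm7 and 5.86 in nm8, so skm4 was its highest array. All 7 measured lymphocyte markers were lower in both skm arrays than in both nm arrays, though 0 of 7 passed limma's test over all genes (7 had an unadjusted p under 0.05). Of all genes, 28.6% were lower without overlap and 13.0% were lower at an unadjusted p under 0.05. The log2 of their summed level was 8.87 in skm4 and 9.54 in skm5, against 10.67 in nm7 and 10.84 in nm8, and their part in the Kcnn4 difference was not tested. The 5 macrophage markers had log2 sums of 11.30 in skm4 and 11.61 in skm5, against 11.82 in nm7 and 11.83 in nm8. Their differences ran from -0.49 to 0.26, 4 negative and 1 positive, and 2 of the 5 were lower without overlap. Within the skm pair, Kcnn4 read 7.24 in skm4 and 7.10 in skm5, and the summed level of both lists was lower in skm4. The macrophage marker Adgre1 was lower in skm5, at 8.42 in skm4 and 8.27 in skm5. The part of either cell type in the Kcnn4 reading was not tested.

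Kcnma1, the large-conductance calcium-activated pore, read 7.998 in skm4 and 8.64 in skm5, against 8.54 in nm7 and 8.26 in nm8, so the prefixes overlapped (-0.08 ± 0.24, adjusted p = 0.881). Its second probe set differed by 0.27. Kcnmb1, its partner in smooth muscle, read between 5.43 and 5.83. The small-conductance channels Kcnn2 and Kcnn3, the second of which is known to appear in denervated fibres, had means of 5.54 and 5.06. Kcnn3 read 5.33 in skm4 and 4.74 in skm5, against 5.27 in nm7 and 4.91 in nm8. This split each prefix, with skm4 and nm7 high, and the slow fibre markers did so too: the log2 of the summed level of those 7 genes was 15.59 in skm4 and 14.71 in skm5, against 15.50 in nm7 and 14.98 in nm8. Whether the fibre makeup bears on Kcnn3 was not tested. Kcnu1, a channel of sperm with an SD of 0.30, read 6.41 in skm4 and between 5.74 and 5.92 in the other arrays, and its SD was 0.09 without skm4.

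Of the 62 genes, 20 had more than 1 probe set, and in 7 of these the probe sets differed in sign. None of them disagreed by more than 0.5 in both directions. For Kcnn1, the chosen probe set differed by 0.20 and the other by 0.66, and for Kcnk1 by 0.22 and 0.64. The second probe set of Kcnj1 differed by 0.56 where the chosen one differed by -0.15, and the 5 probe sets of Kcnj6 ran from -0.53 to 0.38. Kcnip3 and Kcnn4 kept the sign of their difference in both of their probe sets. The second probe set of Kcnn4 overlapped between the prefixes, and that of Kcnip3 did not.

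**Figure D4:**
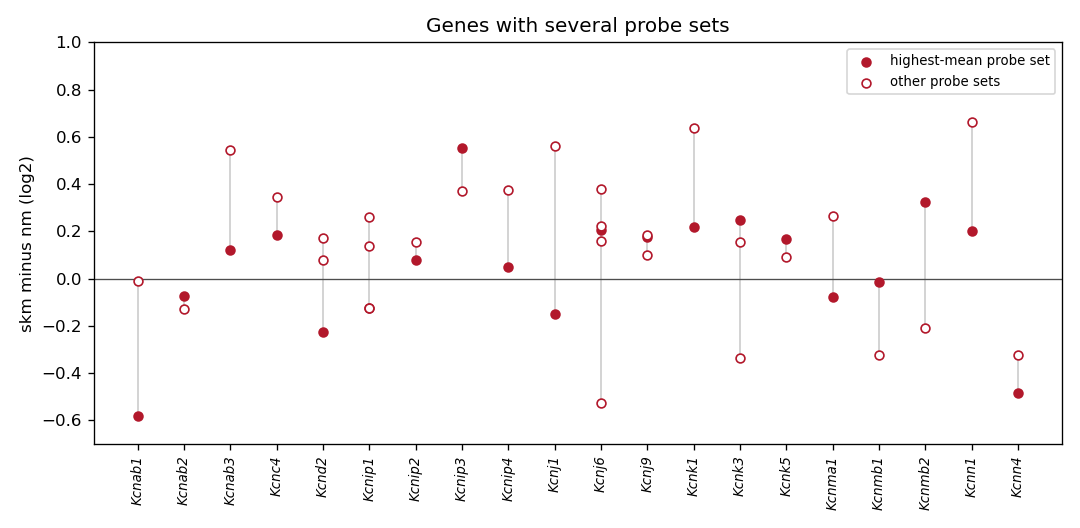
Difference skm minus nm on the log2 scale (vertical axis) for the 20 potassium channel genes with several probe sets (horizontal axis). Filled points are the probe sets with the highest mean and open points the others, joined by a line for each gene. Kcnj6 spans from -0.53 to 0.38, and both probe sets of Kcnip3 lie above 0 and both of Kcnn4 below 0.

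Other genes of membrane excitability gave 12 measured genes of a list of 19, and 0 of 12 passed limma's test over all genes, with 5 at an unadjusted p under 0.05, 4 higher and 1 lower, where 10.6% of all genes were higher and 13.0% lower at that p. Without overlap, 8 of the 12 were higher in skm and 1 was lower, where 25.8% and 28.6% of all genes were, and the median difference was 0.24. Cacna1s, the voltage sensor and pore of the calcium channel of the fibre, read 11.99 in skm4 and 12.01 in skm5, against 11.56 in nm7 and 11.40 in nm8 (0.52 ± 0.12). Atp1b1, a subunit of the sodium-potassium pump, read 11.90 and 12.01 in skm4 and skm5, against 11.43 and 11.03 in nm7 and nm8 (0.72 ± 0.17). Clcn1, the chloride channel that steadies the fibre membrane, differed by 0.25 ± 0.13.

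The promoters of Kcna7 and Kcne1l are shown since these were the only members with a range over 1. RefSeq promoters, on GRCm38.p6 and 300 bases long around the annotated start, were matched for 50 of the 62 genes by symbol. Capitals mark the E-box CANNTG, the site read by myogenic and many other helix-loop-helix factors, searched on both strands. The Kcna7 window is chr7:45405710-45406009 on the plus strand and the Kcne1l window chrX:142306149-142306448 on the minus strand.
Kcna7: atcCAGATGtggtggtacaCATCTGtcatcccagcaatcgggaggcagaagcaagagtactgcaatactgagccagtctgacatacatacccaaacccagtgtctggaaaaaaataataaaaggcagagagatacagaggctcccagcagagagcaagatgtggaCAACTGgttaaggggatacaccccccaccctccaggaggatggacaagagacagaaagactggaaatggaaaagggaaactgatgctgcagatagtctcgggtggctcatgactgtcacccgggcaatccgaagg
Kcne1l: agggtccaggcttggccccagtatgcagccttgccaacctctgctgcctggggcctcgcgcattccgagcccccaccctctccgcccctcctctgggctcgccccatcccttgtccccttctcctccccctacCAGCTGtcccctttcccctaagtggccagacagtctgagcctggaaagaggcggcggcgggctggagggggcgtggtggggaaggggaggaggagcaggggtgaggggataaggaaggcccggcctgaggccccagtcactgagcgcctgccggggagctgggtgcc
The Kcna7 window held 3 such motifs and that of Kcne1l 1. Such a motif stood in 72.3% of all 32851 promoters, so its presence sets neither gene apart. The E-box CACGTG, which is 1 form of CANNTG, stood in 7.15% of all promoters, the D-box TTATGTAA in 0.938% and the MEF2 consensus in 3.19%, and these letters were found in neither window. Over the 68 promoters of the members, the shares were 70.6% for CANNTG, 8.82% for CACGTG, 0% for the D-box and 1.47% for the MEF2 consensus.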

How the data were processed

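The deposited log2 values, 1 for each probe set, were made by the authors by RMA. The submitters' processing notes name Affymetrix Expression Console 1.1. That the scale is log2 follows from the values. The sources used here do not name the arrays normalized together. Of 22690 probe sets, 64 controls were left out, 20380 had 1 gene, 691 several and 1555 none. Symbols were updated through Entrez identifiers. The difference skm minus nm was fitted over all 12393 genes with limma 3.58.1 in R 4.3.3 (lmFit, eBayes, 2-sided) and adjusted by Benjamini-Hochberg at a threshold of 0.05. The fit was tested on simulated data. Named genes were the 10 members by moderated t, 10 by SD, 5 by mean and 22 muscle-related members of 25 listed; further members were named after their values were seen. The members and lists were chosen with earlier results of these data known. A planned search of protein sequences was not run. The alternatives tried are given at the end.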

Additional observations from a re-analysis of the deposited data

Results flagged for a closer look

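In 3 of the 62 potassium channel genes (4.84%), 1 array stood apart from the other 3 by Dixon's ratio, against 4.21% of all genes. Chance flags about 1 in 20 groups. Kcnq5 had a ratio of 0.947, with nm7 at 4.83 above 4.39 in skm4, 4.39 in skm5 and 4.41 in nm8. Kcnj6, a subunit of G protein-gated channels, had a ratio of 0.904, with skm4 at 6.82 above 6.48 in skm5, 6.44 in nm7 and 6.45 in nm8. Kcnj5, another subunit of those channels, had a ratio of 0.868, with skm4 at 5.27 above 5.06 in skm5, 5.09 in nm7 and 5.07 in nm8. All 3 genes read below the median of all genes, and their ranges were 0.44, 0.38 and 0.21.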

How the results depend on the processing

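With limma, 0 potassium channel genes were called, also with quantile normalization, with median centring, with the mean of probe sets, without probe sets ending in _x_at or _s_at, and without any 1 array (0 to 0). With genes under the median level left out the count was 2 of the 10 members tested, where 16.6% of the 6197 genes left passed. The median difference of these 10 was 0.22, against -0.04 over all genes left. The count of members called was 1 with an intensity trend, where 8.96% of all genes passed. At a threshold of 0.10 it was 2 of 62, where 995 of 12393 genes passed. Over all genes the 4 calls became 22 with quantile normalization, 1026 with genes under the median level left out, 92 with the mean of probe sets, 142 without _x_at and _s_at probe sets, 1110 with an intensity trend, 995 at a threshold of 0.10 and 0 to 15 without 1 array. The count of members with a range over 1 was 1 to 2 without 1 array. The median difference over members ran from -0.00563 to 0.12 and the median SD from 0.18 to 0.21 without 1 array. The 10 differences followed, those of the 10 members by moderated t, kept their sign in 94 of 94 fits. The prefixes did not overlap in any of these genes, so leaving out 1 array could not reverse a sign. The count is therefore no check on the differences. With the mean of probe sets the SD of Kcnab1 was 0.19. No paired analysis was possible because the labels put all samples in 1 group. RMA understates differences of dim probe sets, which limits what these arrays can show for them.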
